A study of Mus musculus with 8 samples.

Results

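The Ifit genes of the mouse were examined in BMEL cells, a bipotential line of the embryonic mouse liver. The members were the rows of the deposited expression table named Ifit1, Ifit2, Ifit3 and Ifit3b, and all 4 were found among its 18671 genes. They had been chosen by their lower values in this same comparison, so their differences are given as a description, with no test. RNA-seq had been performed on 8 samples, 4 transfected with a plasmid coding for human GRHL2 with a Flag tag (the GRHL2 group) and 4 transfected with pcDNA3 (the control group). Both groups were grown on collagen, with EGF, IGFII and insulin in the medium, received plasmid DNA, and were harvested 48 h after transfection. The GRHL2 plasmid, which carried the GRHL2 cDNA under the EEF1A1 promoter, also expressed enhanced green fluorescent protein, so that the plasmids differed by more than GRHL2. Replicates 1 to 4 of each group share their numbers, and they are described in the study as independent biological replicates. Each sample is the average of a whole culture, and fewer cells expressing a gene cannot be told apart from less RNA per cell.

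Ifit genes code for cytoplasmic proteins built of tetratricopeptide repeats and belong to the genes most strongly induced by type I interferon in many cell types, hepatocytes included. Ifit1 binds the 5′ end of RNA that lacks the cap methylation of host messengers and blocks its translation, Ifit2 and Ifit3 bind other Ifit proteins, and Ifit3b is a second copy of Ifit3 found in mice. Their transcription is switched on when activated STAT and IRF factors bind the interferon-stimulated response element (ISRE) of their promoters.

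The members lie together on the plus strand of chromosome 19 (GENCODE M21, GRCm38). Ifit2 (ENSMUSG00000045932) spans chr19:34550694-34576419, Ifit3 (ENSMUSG00000074896) chr19:34583531-34588731, Ifit3b (ENSMUSG00000062488) chr19:34607970-34613401 and Ifit1 (ENSMUSG00000034459) chr19:34640871-34650009. Ifit1, Ifit3 and Ifit3b have 2 exons each, and the longer of the 2 Ifit2 transcripts has 3. The coding sequences of Ifit3 and Ifit3b, 1209 bases each, were identical at 99.1% of their bases, and 18.5% of the 150-base windows of the Ifit3 transcript, the length of the reads, occurred unchanged in that of Ifit3b. Reads of these paralogs could therefore be lost or split in the counting, and their values are less certain than those of the other members. Other pairs of members shared 60.6% to 66.8% of their aligned coding bases and no 150-base window.

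The promoters are shown because the ISRE letters differ between Ifit2 and the other members. The stretches end at the base before the RefSeq start or, for Ifit1, before its GENCODE start, which lies upstream of the RefSeq start. They run 5′ to 3′ on the plus strand (RefSeq, GRCm38.p6) and carry in capitals each match to the ISRE core, searched on both strands as GAAA, 2 bases of any kind and GAAA; all matches fell on the minus strand, so that the capitals read as its reverse complement. Ifit1 is chr19:34640639-34640870, Ifit2 chr19:34550444-34550693, Ifit3 chr19:34583279-34583528 and Ifit3b chr19:34607707-34607956.
Ifit1: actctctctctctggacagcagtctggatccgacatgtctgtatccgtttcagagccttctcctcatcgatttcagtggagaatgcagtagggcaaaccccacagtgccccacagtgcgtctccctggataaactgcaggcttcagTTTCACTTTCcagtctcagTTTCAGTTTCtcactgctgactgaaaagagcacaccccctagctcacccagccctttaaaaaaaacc
Ifit2: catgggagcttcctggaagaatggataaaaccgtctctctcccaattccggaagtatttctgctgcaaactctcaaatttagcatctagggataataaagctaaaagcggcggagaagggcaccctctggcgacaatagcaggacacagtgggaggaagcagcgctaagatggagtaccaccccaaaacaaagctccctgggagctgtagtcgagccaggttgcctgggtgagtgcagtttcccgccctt
Ifit3: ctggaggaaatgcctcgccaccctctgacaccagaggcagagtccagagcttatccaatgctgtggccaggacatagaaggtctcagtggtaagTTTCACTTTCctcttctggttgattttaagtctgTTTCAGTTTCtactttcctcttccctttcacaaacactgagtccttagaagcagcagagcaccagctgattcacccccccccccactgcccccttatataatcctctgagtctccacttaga
Ifit3b: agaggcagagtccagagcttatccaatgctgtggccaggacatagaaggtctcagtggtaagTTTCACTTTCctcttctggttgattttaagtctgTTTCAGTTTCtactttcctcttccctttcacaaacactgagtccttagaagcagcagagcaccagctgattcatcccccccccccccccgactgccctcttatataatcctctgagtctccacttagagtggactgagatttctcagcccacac

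In the windows of 250 bases before to 50 after each RefSeq start, Ifit1, Ifit3 and Ifit3b held 2 ISRE cores each, beginning at positions -104 and -85 from the RefSeq start in Ifit1, -156 and -122 in Ifit3, and -188 and -154 in Ifit3b. The first core of each had the same 10 letters in these 3 genes, as had the second. Of all 32851 promoter windows, 3.44% held the core and 0.225% held it 2 or more times. Ifit2 has 2 annotated starts, and neither window held the core. The Ifit2 window printed above held a match to the gamma-activated site (TTCNNNGAA, present in 8.3% of windows) at position -241, which the other members did not hold. No member held the Grainyhead site AACCGGTT (0.146% of windows), its looser form AACNNGTT (4.2%), which includes the first, or TATAAA (13.6%). The Ifit3 and Ifit3b windows were identical at 258 of 260 aligned bases. These matches describe letters only, and sites outside the windows were not searched.

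All 4 members were lower in every GRHL2 sample than in every control sample. Ifit3 was at 27.2% of its control level, Ifit1 at 32.4%, Ifit3b at 41.9% and Ifit2 at 81.6%. Values are on the deposited log2 scale, a regularized log of reads per transcript length, in which differences of genes with few reads are shrunk, so that the changes may be understated.

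Ifit3 stood at 7.60, 7.80, 8.18 and 7.62 in control replicates 1 to 4 and at 5.80, 5.88, 6.01 and 5.99 in the GRHL2 replicates. The groups were far apart, with a gap of 1.59 between the lowest control and the highest GRHL2 sample. The means were 7.80 ± 0.27 and 5.92 ± 0.099 (SD, n = 4 each), a difference of -1.88, or 3.68-fold lower, and this was the lowest difference of the whole table. Within pairs of the same number the difference was -1.80, -1.92, -2.17 and -1.63. Each pair differed in the same direction, and control replicate 3 was the highest sample of all.

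Ifit1, which binds foreign RNA ends, stood at 6.71, 6.91, 7.02 and 6.60 in control samples and at 5.13, 5.27, 5.08 and 5.26 in GRHL2 samples. The groups were separated by a gap of 1.33. The means were 6.81 ± 0.19 and 5.18 ± 0.094 (SD, n = 4 each), 3.09-fold lower with GRHL2, and the difference of -1.63 ranked as number 2 from the lowest of 18671. The pairs differed by -1.59, -1.64, -1.94 and -1.34.

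Ifit3b stood at 5.87, 6.01, 6.30 and 5.89 in control samples and at 4.74, 4.89, 4.69 and 4.73 in GRHL2 samples, with a gap of 0.98. Control replicate 3 was again the highest sample. The means were 6.02 ± 0.20 and 4.76 ± 0.086 (SD, n = 4 each), a difference of -1.26 (2.39-fold lower), which ranked as number 4 from the lowest. The pairs differed by -1.13, -1.12, -1.61 and -1.16.

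Ifit2 differed least between the groups. It stood at 7.71, 7.68, 7.66 and 7.64 in control samples, which were almost alike, and at 7.48, 7.20, 7.37 and 7.45 in GRHL2 samples. The gap between the groups was only 0.15, about as wide as the SD of the GRHL2 samples. The means were 7.67 ± 0.030 and 7.38 ± 0.13 (SD, n = 4 each), a difference of -0.29 (1.23-fold lower), and this ranked as number 451. The pairs differed by -0.22, -0.48, -0.28 and -0.19, and none came near the smallest pair difference of the other members.

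**Figure D1:**
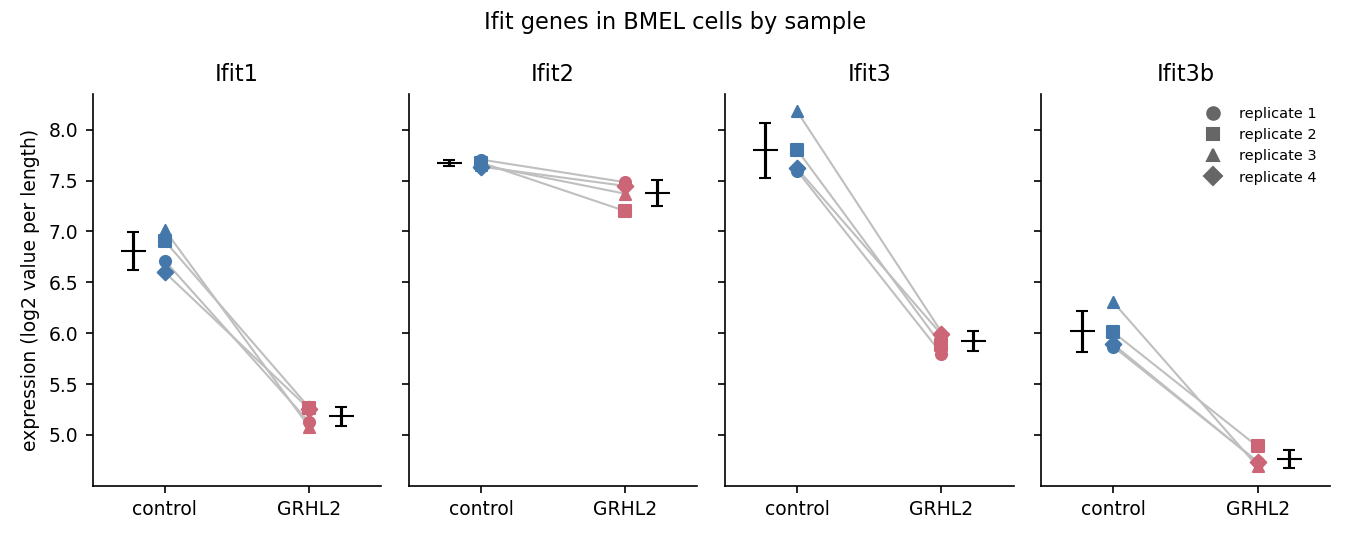
Expression of Ifit1, Ifit2, Ifit3 and Ifit3b (log2 value per transcript length, y axis) in the 4 control (blue) and 4 GRHL2 (red) samples, with symbols for replicate numbers, grey lines between samples of the same number and black bars for mean ± SD. The group means of Ifit1, Ifit3 and Ifit3b lie more than 1 log2 unit apart, and those of Ifit2 are 7.67 and 7.38.

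Being below in all 4 samples was not rare in itself, as 9.47% of all genes showed it, and limma called 5.91% of all genes lower (1104 genes) and 10.5% higher (1957 genes). With the replicate block these were 2589 and 3396 genes, 690 were lower without GRHL2 replicate 3, and an equal upper quartile gave 3064 higher. No member's difference changed sign under any alternative. Without control replicate 3 the differences were -1.56 for Ifit1, -0.30 for Ifit2, -1.75 for Ifit3 and -1.16 for Ifit3b. Replicates 1 and 2 alone gave -1.61, -0.35, -1.86 and -1.13 in the same order, and replicates 3 and 4 alone gave -1.64, -0.24, -1.90 and -1.39.

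The levels of the members were then set in order. Per transcript length, Ifit3 and Ifit2 were the highest in control cells and did not differ beyond their spread (Ifit2 minus Ifit3 -0.13 ± 0.28, SD, n = 4), with levels above 60.9% of all genes for Ifit2 and 62.2% for Ifit3. Ifit1 followed, with Ifit3 0.99 ± 0.13 above it, and Ifit3b was lowest. In GRHL2 cells Ifit2 was the highest, with a level above 57.9% of all genes, while Ifit3 was above 46.4%. Ifit1 was above 53.0% of genes in control and 42.1% in GRHL2 cells, and Ifit3b above 47.3% and 39.6%. Ifit2 then stood 1.46 ± 0.16 above Ifit3, Ifit3 0.74 ± 0.14 above Ifit1 and Ifit1 0.42 ± 0.067 above Ifit3b (SD, n = 4), and none of these neighbours overlapped in any sample. Ifit3 stood above its copy Ifit3b by 1.78 ± 0.070 in control and 1.16 ± 0.15 in GRHL2 cells. These distances depended on transcript length. With its log2 added back, the means were ordered Ifit2, Ifit3, Ifit1 and Ifit3b in both groups. In control cells Ifit3 minus Ifit2 was then -0.24, within its SD of 0.28, and Ifit3 stood above Ifit2 in control replicate 3. There Ifit3 minus Ifit1 was 0.39, and Ifit1 minus Ifit3b went from 0.79 to 1.20. In GRHL2 cells Ifit3 minus Ifit1 was 0.13, with overlapping samples, and Ifit1 minus Ifit3b was 0.83. The mean length of Ifit2 rests on transcripts of 3818 and 700 bases.

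The members also differed in how they varied between samples of one group. Control replicate 3 was the highest control sample for Ifit1, Ifit3 and Ifit3b, by up to 0.38 above the control mean for Ifit3, whereas Ifit2 was highest in control replicate 1. After group means were removed, Ifit1 and Ifit3b moved together over the 8 samples (Pearson's r = 0.853, Spearman's rho = 0.881), and r was 0.729 without control replicates 3 and 4. For Ifit1 and Ifit3, r was 0.748 (rho = 0.524) and fell to 0.350 without the same samples. For Ifit3 and Ifit3b, r was 0.809 (rho = 0.595) and fell to 0.197 without control replicates 1 and 3, so that these relations rested on few samples. For Ifit2, r was -0.179, -0.084 and -0.375 to Ifit1, Ifit3 and Ifit3b (rho = -0.048, -0.119 and -0.262). Without the 2 farthest samples these were -0.390, -0.117 and -0.209. These are descriptions over 8 samples that share libraries and scaling.

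Control replicate 3 stood apart for the antiviral effectors in general. Of 59 interferon-induced antiviral genes other than Ifit (the effectors), 48 (81.4%) were highest in control replicate 3 among the control samples, against 20.0% of all genes. Among GRHL2 samples, no replicate was the highest for more than 39.0% of the effectors. The differences of the members without control replicate 3 are those given above.

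**Figure D2:**
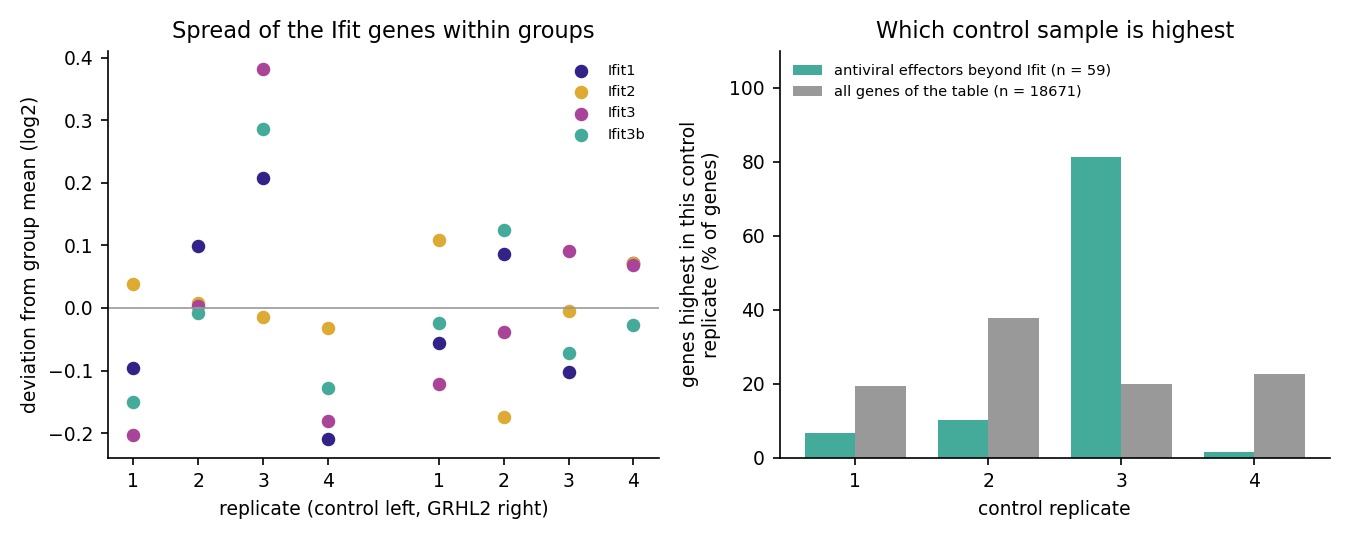
Left, deviation of each Ifit gene from its group mean (log2, y axis) by replicate, control samples on the left and GRHL2 samples on the right. Right, share of genes (%) that were highest in each control replicate, for the 59 effectors (green) and all 18671 genes (grey); control replicate 3 was highest for 81.4% of effectors and 20.0% of all genes.

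The cluster holds 6 Ifit genes in 99.3 kb, as Ifit1bl1 and Ifit1bl2, both on the minus strand, lie between the members. Ifit1bl1 was lower with GRHL2, at 4.65 ± 0.30 against 3.93 ± 0.031 (SD, n = 4 each; difference -0.71, SE 0.12, adjusted p = 0.0041), and its pairs differed by -0.64, -0.33, -1.02 and -0.87. Ifit1bl2 was among the lowest genes measured, at 0.52 in both groups (difference -0.0017, adjusted p = 0.971). Each of these genes has 2 promoter windows, which together held 2 ISRE core matches. Their positions were not compared, so a core shared by both windows cannot be told from separate cores.

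**Figure D3:**
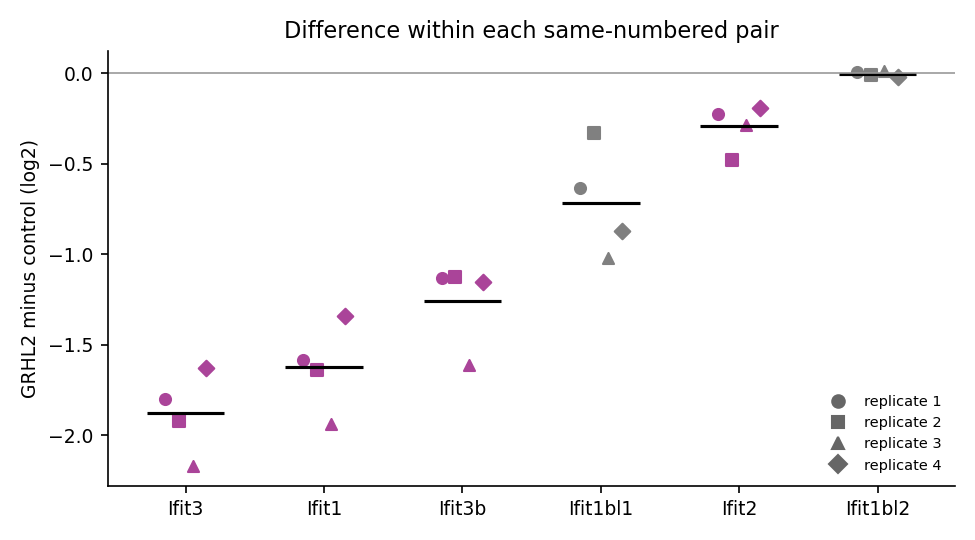
GRHL2 minus control (log2, y axis) within each pair of samples of the same replicate number (symbols) for the members (purple) and the other Ifit genes of the cluster (grey), with the mean as a black line. All pairs were below 0 for the members and for Ifit1bl1, whereas Ifit1bl2 lay at 0.

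The genes beside the cluster were examined next. Of the 10 nearest genes of the table, 5 on each side, limma called 1 lower and 2 higher, with a median difference of 0.045. Over all genes limma called 5.91% lower and 10.5% higher, and 10 genes are too few to read a difference from these shares. Lipa, a lysosomal lipase gene 23.2 kb before Ifit2, differed by 0.080 (SE 0.15, adjusted p = 0.768), and its direction turned without GRHL2 replicate 3 (-0.0054) or control replicate 2 (-0.018). Slc16a12, a transporter gene 18.4 kb after Ifit1, differed by 0.46 (adjusted p = 0.300), which was called with the replicate number as a block (adjusted p = 0.0007), a fit that called 4 of the 10 higher and 18.2% of all genes, and with replicates 3 and 4 alone (adjusted p = 0.0014). It was 0.30 without GRHL2 replicate 3 and 0.26 without control replicate 2, and was called in neither. Fas, which codes for a death receptor and lies 223 kb before the cluster, was lower at 6.94 ± 0.16 against 7.49 ± 0.086 (SD, n = 4 each; difference -0.55, SE 0.081, adjusted p = 0.0018). Pank1 (0.31, adjusted p = 0.0134; 0.33 and 0.0705 with replicates 1 and 2 alone) and Htr7, 1309 kb away (0.32, adjusted p = 0.0056), were higher.

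**Figure D4:**
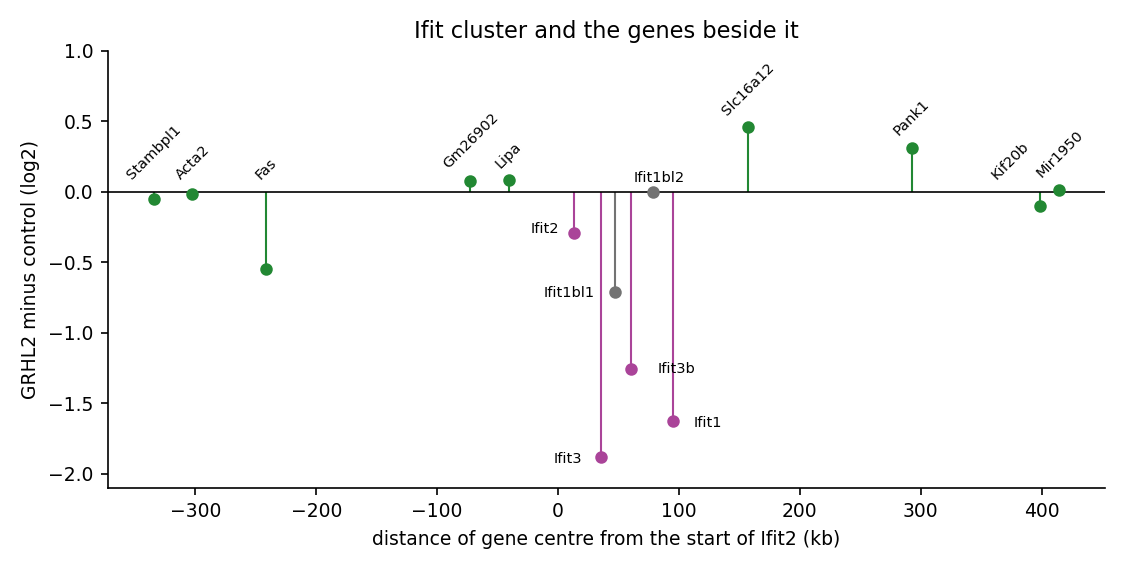
GRHL2 minus control (log2, y axis) against the distance of the gene's centre from the start of Ifit2 (kb, x axis) for members (purple), other Ifit genes (grey) and neighbours (green); Htr7 lies beyond the axis. Ifit3, Ifit3b and Ifit1 reached -1.88, -1.26 and -1.63, and the nearest neighbours Lipa and Slc16a12 were at 0.080 and 0.46, both not called.

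Grhl2 itself was read on the mouse symbol, although the plasmid carries the human cDNA, and how far reads of that cDNA were counted there was not tested. It stood at 4.68, 4.57, 4.42 and 4.44 in control samples and at 6.30, 6.96, 5.65 and 6.05 in GRHL2 samples (difference 1.71, SE 0.22, adjusted p = 0.0010), in the direction of the labels. The sample with the highest Grhl2 value, GRHL2 replicate 2, had the lowest Ifit2 but the highest Ifit1 and Ifit3b values of its group.

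The other steps of the interferon pathway were described in 6 lists, of which 112 of 135 genes were in the table. Limma called 25 of them lower and 6 higher, a share of 22.3% lower against 5.91% of all genes and of 5.36% higher against 10.5%. Of the 25, 20 were effectors, and the median over the 112 genes was -0.069, against 0.0066 over all genes. With the replicate block 42 were called lower and 16 higher, against 13.9% and 18.2% of all genes. With replicates 1 and 2 alone 11 were lower and 4 higher, against 339 and 1021 genes of the whole table. With a difference beyond 0.5, 1 was lower and 0 higher, against 70 and 199. The lists had been chosen with earlier results of these data known.

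Ligands were hardly measurable. Of 21 interferon genes only Ifnb1 and Ifnab were in the table, at 1.87 and 2.01 in control cells, and neither was called (Ifnb1 -0.066, adjusted p = 0.0959; Ifnab -0.070, adjusted p = 0.0652, and 0.0473 with the replicate block). Without control replicate 2 the adjusted p of Ifnab was 0.0448. By limma both were lower at an unadjusted p under 0.05, as were 12.7% of all genes. Both were lower in every GRHL2 sample than in every control sample, as were 9.47% of all genes. Ifnb1 was at 1.80 in each GRHL2 sample, and at such levels the rlog limits the difference that can be seen. Of 19 sensors and adaptors, which detect viral nucleic acid and relay the signal, 3 were lower and 2 higher (5 and 5 with the block). Trim25, a ubiquitin ligase that activates RIG-I, differed by -0.29 (adjusted p = 0.0043), and Tbk1, the kinase of IRF3, by -0.25 (adjusted p = 0.0113). Neither was called with replicates 1 and 2 alone (differences of -0.28 for each, adjusted p = 0.0759 for Trim25 and 0.0636 for Tbk1). Zbp1, a sensor of left-handed nucleic acid, differed by -0.13 (adjusted p = 0.0229), but 5 of 8 fits that left out 1 sample, namely GRHL2 replicate 1, 3 or 4 or control replicate 1 or 4, did not call it (highest adjusted p = 0.0683), nor did replicates 1 and 2 alone (-0.10, adjusted p = 0.230). Tlr3, an endosomal receptor of double-stranded RNA, was higher by 0.29 (adjusted p = 0.0016). Cgas, a DNA sensor named here after its value was seen, differed by 0.11 (adjusted p = 0.0445), from a level of 0.92 in control samples, and was not called without GRHL2 replicate 1 or 2 or control replicate 1, 3 or 4 (highest adjusted p = 0.115). Limma called 0 of the 9 receptors and Janus kinases, against 1 lower and 2 higher at an unadjusted p under 0.05, and the replicate block called 1 lower and 3 higher.

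Of 11 STAT and IRF factors, which include those that switch on Ifit genes, 1 was lower and 3 were higher (3 and 4 with the block). Stat2 differed by -0.094 (adjusted p = 0.636), and by between -0.17 without control replicate 2 and -0.013 without control replicate 3 when each sample was left out. Irf9, its partner at the ISRE, differed by -0.16 (adjusted p = 0.160; 0.0495 with the replicate block). Without control replicate 3 the Irf9 difference was -0.10. Irf7, itself interferon-induced, was lower, at 5.97 ± 0.19 against 5.47 ± 0.067 (SD, n = 4 each; difference -0.50, adjusted p = 0.0043; -0.44 and 0.0502 with replicates 1 and 2 alone). Irf5 (0.39, adjusted p = 0.0025) and Irf4 (0.18, adjusted p = 0.0018) were among those higher. Irf3 differed by 0.11 (adjusted p = 0.293) and Irf1 by 0.16 (adjusted p = 0.468; 0.0268 with the block). Without control replicate 2 these were 0.059 and 0.042, and without GRHL2 replicate 4 Irf1 differed by 0.086.

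Among the 59 effectors, 20 were lower and 0 higher by limma (29 and 2 at an unadjusted p under 0.05, which 12.7% of all genes met as lower and 18.4% as higher), and 51 had a lower mean with GRHL2. With the replicate block 28 were lower and 2 higher. Without control replicate 3 the number called lower was 19. Their median difference was -0.11, against the -1.26 to -1.88 of Ifit1, Ifit3 and Ifit3b, which had been chosen for low values. The effectors ranged from -1.13 to 0.27, a range that holds Ifit2 at -0.29. Cxcl10, a chemokine that attracts T cells, was the only effector with a difference beyond 0.5. It stood at 7.01, 7.23, 7.25 and 6.94 in control samples and at 5.91, 6.06, 5.99 and 5.94 in GRHL2 samples (difference -1.13, SE 0.073, adjusted p = 3.16e-05). The next were the DNA sensor gene Ifi204 (-0.43, adjusted p = 0.0058; -0.43 and 0.0563 with replicates 3 and 4 alone) and the guanylate-binding protein gene Gbp2 (-0.42, adjusted p = 0.0053; -0.28 with replicates 1 and 2 alone). Rsad2, which codes for viperin, differed by -0.34 (adjusted p = 0.0047) and the ubiquitin-like Isg15 by -0.28 (adjusted p = 0.0165; -0.20 and 0.0763 with replicates 1 and 2 alone), while Oasl1 differed by -0.056 (adjusted p = 0.301), or -0.031 without control replicate 3. Of the 46 effectors with a promoter window, 23 held the ISRE core, as against 3.56% of the table's genes with a window. Of these 23, 12 were called lower (median difference -0.19), and of the 23 without the core, 4 were (median -0.066). A gene counted as holding the core if any of its windows did, and effectors without a window were left out. The difference between these sets was not tested.

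Inhibitors of the response gave 1 lower and 1 higher of 12 genes (4 and 2 with the block). Usp18, which removes ISG15 from proteins and restrains the interferon receptor, stood at 6.94 ± 0.36 and 6.45 ± 0.044 (SD, n = 4 each; difference -0.49, adjusted p = 0.0448). Its pairs differed by -0.51, -0.20, -1.01 and -0.24, and it was not called without any one GRHL2 replicate or without control replicate 1 (highest adjusted p = 0.103). Without control replicate 3 it was called at a smaller difference of -0.32 (adjusted p = 0.0231), and with no mean-variance trend or with replicates 1 and 2 or 3 and 4 alone it was not called (adjusted p = 0.0753, 0.0787 and 0.0929). Cish, a feedback inhibitor of cytokine receptors, was higher by 0.41 (adjusted p = 0.0174), and was not called without control replicate 1 (difference 0.37, adjusted p = 0.0561) or with replicates 1 and 2 alone (0.54, adjusted p = 0.0988).

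**Figure D5:**
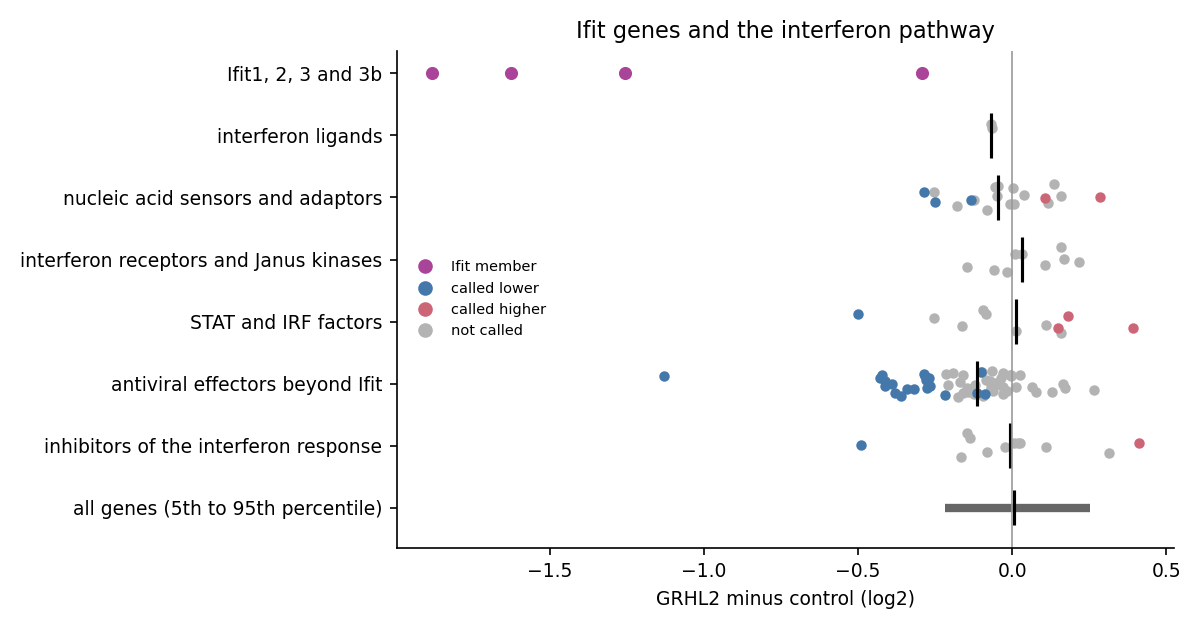
GRHL2 minus control (log2, x axis) for the members (purple) and for each gene of the 6 pathway lists (rows), coloured by the limma call, with list medians as black lines and the 5th to 95th percentile of all genes as a grey bar. Vertical jitter only separates points. Cxcl10 at -1.13 was the listed gene nearest to Ifit3b at -1.26.

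Limma called 0 of the 5 cap methylation genes, which help to make the mark of host messengers (1 was lower at an unadjusted p under 0.05), with a median of -0.072. Cmtr2 came closest at -0.18 (adjusted p = 0.0507), and it was called with the replicate block (adjusted p = 0.0163), without control replicate 4 (adjusted p = 0.0283), with no mean-variance trend (adjusted p = 0.0401) and among genes with a mean of at least 0 (adjusted p = 0.0485). With replicates 3 and 4 alone its difference was -0.10 (adjusted p = 0.181). Of 14 subunits of eIF3, the translation factor that Ifit proteins bind, 2 were lower. Eif3a, its largest subunit, differed by -0.45 (adjusted p = 0.0283), but 4 of 8 fits without 1 sample (GRHL2 replicate 3 or 4, or control replicate 1 or 2) did not call it (highest adjusted p = 0.0785), nor did the fit with no mean-variance trend (adjusted p = 0.0517). Eif3d, named here after its value was seen, differed by -0.27 (adjusted p = 0.0421), and was not called without any 1 of 6 samples, all but GRHL2 replicate 2 and control replicate 4 (highest adjusted p = 0.117). With the block 5 subunits were lower, and Eif3a had an adjusted p of 7.95e-05. Its pairs differed by -0.38, -0.59, -0.42 and -0.43.

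Genes most like the members were sought among 9334 genes of at least median level, by Pearson's r to the mean of the centred members over the 8 samples. Cxcl10 was closest (r = 0.994), followed by Nfe2l1 (0.989), Rnf166 (0.989), Cebpb (0.985) and Ss18l2 (0.983). As this profile is mainly the difference between groups, which had chosen the members, the likeness is a description. Without control replicates 2 and 3, the samples farthest out, r was at least 0.974. The sizes differed greatly from those of the members, with -0.12 for the transcription factor gene Nfe2l1 (adjusted p = 0.0640; 0.0219 with the block) and -0.41 for Cebpb. After group means were removed, the closest were Nfe2l1 (r = 0.990), Dnajc3 (0.962), Gm14253 (0.953), Ddx58 (0.947), which codes for the RNA sensor RIG-I, and Pi4kb (0.930). Without control replicates 3 and 4 these were 0.964, 0.810, 0.829, 0.837 and 0.954. By Spearman's rho, 1 of the 5 and 3 of the 5 genes were again among the closest.

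The cells were labelled as liver cells and expressed the epithelial keratins Krt8 (15.3 in control samples), Krt18 (14.8) and Krt19 (15.0) and the liver factor Hnf4a (11.2). Afp, which the study used as a marker of hepatoblasts, was at 8.32, and the hepatocyte gene Alb was at 5.25. Ptprc, which marks leukocytes, was at 0.90 and the macrophage gene Lyz2 at 1.32, while Cd14 (8.47) and Cd68 (6.08), of the same macrophage list, were not low. The summed macrophage level (6 of 7 markers) was 8.74 to 8.92 in control and 8.75 to 9.07 in GRHL2 samples, a sum carried mostly by Cd14. Limma called 0 of these 6 markers (0 lower and 1 higher at an unadjusted p under 0.05), and the block called 1 lower and 1 higher. Of 4 endothelial markers in the table (5 listed) limma called 0 (1 lower and 2 higher at an unadjusted p under 0.05), and the block called 2 higher, Kdr and Tek. Of 4 fibroblast and stellate cell markers (7 listed) limma called 1 higher, Pdgfrb, at -0.23 in control and -0.12 in GRHL2 samples (adjusted p = 0.0089; 0.10 higher and 0.0604 with replicates 3 and 4 alone), and the block called Col1a1 as well. The part of these cell types in the Ifit differences was not tested. Of the 10 liver epithelium markers, limma called 1 lower and 2 higher (1 and 5 with the block). Afp differed by -0.21 (adjusted p = 0.0124; -0.22 and 0.107 with replicates 1 and 2 alone), Epcam by 1.75 (adjusted p = 4.59e-07) and Cdh1 by 0.29 (adjusted p = 0.0199). Cdh1 was not called without GRHL2 replicate 3 or 4 or control replicate 1 (highest adjusted p = 0.0618). It was called with the block (adjusted p = 0.00042).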

How the data were processed

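RNA-seq of BMEL cells comprised 8 samples, grouped by the sample labels. According to the study's methods, with versions from the submitters' processing notes (the methods give others for HISAT2 and DESeq2), the authors aligned reads of 150 bases to mm10 with HISAT2 (2.2.1), counted exons with HTSeq (0.9.1), strand ignored, dropped genes under 10 reads in all, and divided the rlog of DESeq2 (1.40.2) by transcript length. The values were read as rlog less the log2 of length, which is an inference from the values. The methods open with public data and were assumed to cover these samples. The deposited values are log2 values, although named for FPKM, and 4.81% of them were below 0. Depth cannot be read from them and is unknown, so no counting intervals are given.

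Differences were tested on all 18671 genes by fitting both groups in limma 3.58.1 (R 4.3.3), allowing for a mean-variance trend, and genes were called at an adjusted p under 0.05 (Benjamini-Hochberg). The procedure was tested on simulated data, and the outcome is not reported here. The simulated samples were drawn independently, so that test does not cover samples that deviate together. Samples of the same number deviated together (r across genes 0.474, 0.565, 0.549 and 0.645), so the replicate numbers pair them. The block is given beside the calls of named genes that it changed, and for Eif3a and Cdh1. Zbp1, Usp18 and Cish, which some fits without 1 sample did not call, were called with the block (adjusted p = 0.0134, 0.0118 and 0.0022).

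The members and all gene lists were chosen with earlier results of these data known. Named from each list were all genes if 5 or fewer, otherwise up to 3 lowest and 3 highest differences among called genes whose groups did not overlap, and 11 fixed genes. Some genes of this rule are not reported here. Other genes named by value, such as Krt8, were taken from the marker lists after their values were seen. Alternatives were scaling to the same upper quartile or to the same sum, the block, each sample left out, replicates 1 and 2 or 3 and 4 alone, no trend, a mean of at least 0 and a difference beyond 0.5. A count of effectors without control replicate 3 was chosen after seeing the data. Positions are those of GENCODE M21, matched by symbol for 18428 genes. Promoter windows are those of RefSeq (GRCm38.p6), aligned with Biopython 1.88.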

Additional observations from a re-analysis of the deposited data

Results flagged for a closer look

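Among 132 groups of 4 samples (66 genes, members included), 5 held a sample whose gap to the nearest other exceeded the critical share of the group's range in Dixon's test, and chance alone gives about 1 in 20. None was a member. Tlr3 was lowest in control replicate 2, at 6.31, with the others between 6.40 and 6.41. Epcam was highest in GRHL2 replicate 2, at 8.31, with the others between 8.13 and 8.14. Ifnab was highest in GRHL2 replicate 4, at 1.95, with the others at 1.94. The T cell gene Cd3e, near the lower end of the table, was highest in control replicate 1, at 0.22, and in GRHL2 replicate 4, at 0.16, with the others at 0.12.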

How the results depend on the processing

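Under 14 settings, the reported one included, the difference ranged from -1.70 to -1.56 for Ifit1, -0.35 to -0.24 for Ifit2, -1.95 to -1.75 for Ifit3 and -1.39 to -1.13 for Ifit3b, with no change of direction. Counts were less stable. With the replicate block, genes called lower numbered 2589 and higher 3396, pathway genes 42 and 16, and neighbours called higher 4. An equal upper quartile gave 3064 genes higher and, like an equal sum, moved the share of calls that were higher from 63.9% to 75.9% and 77.0%, with the median of all genes at 0.029 and 0.031. Replicates 1 and 2 alone gave 339 genes lower, 1021 higher and 11 pathway genes lower, and replicates 3 and 4 alone 1667 lower. A difference beyond 0.5 left 70 genes lower, 199 higher, 1 pathway gene lower (Cxcl10) and 0 pathway genes or neighbours higher. Leaving out each sample in turn gave 690 to 1036 genes lower, with the fewest without GRHL2 replicate 3 (690), control replicate 1 (691), GRHL2 replicate 4 (719) and GRHL2 replicate 1 (722), and 1326 to 1848 higher, 21 to 26 pathway genes lower and 4 to 7 higher. With transcript length added back, Ifit3 minus Ifit2 in control samples turned from 0.13 to -0.24, since the log2 lengths differ. The cause of the other changes was not tested. Depth is unknown, and the rlog limits how far low genes such as the interferons could be seen to differ.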
